A study of Homo sapiens with 8 samples.

Results

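Named antisense transcripts are genes whose symbol is that of another gene followed by -AS and a digit. The deposited table held 34618 genes, of which 1771 had such a name, and the 200 with the highest mean read count over the 8 libraries are described here. These members were chosen by their mean count, which is given as a description only. It ran from 108.5 to 6416 reads a library, with a median of 200.3. All 200 passed the filter on low counts, out of 624 named antisense transcripts that did. The gene named before -AS, called the sense gene below, was in the table for 193 members and was itself tested for 187, which made 187 pairs over 183 different sense genes.

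A natural antisense transcript is made from the DNA strand opposite to another gene. Some start beside the promoter of the sense gene and run away from it or across it, some run into its 3′ end, and some lie wholly within it. Where their exons overlap, both RNAs share complementary sequence, and single members of the class are known to act on the sense gene through the RNA or through transcription itself, while others act on unrelated genes or have no known role. The symbol records where a transcript lies, not what it does.

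The cells were THP1, an established line from acute myeloid leukaemia. In 4 libraries, here RRM2_OE, the cells had been transduced with an iRxI/AxA mutant, and in the other 4, MOCK, with an empty vector; both groups received doxycycline at 2 µg/mL. RRM2 encodes a subunit of the reductase that supplies deoxyribonucleotides for DNA synthesis. The poly(A) libraries were stranded, and the labels do not say that the replicates of a group came from separate cultures, so the p-values speak only of spread among libraries, which may be technical. Beside the shared line and drug, the labels name no other difference between the groups.

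The libraries held 10994255 to 11686152 counted reads. RRM2, the overexpressed gene, averaged 225 ± 8.33 CPM (counts scaled to library size) in RRM2_OE and 123 ± 5.35 CPM in MOCK (SD, n = 4 each), in the direction of the labels; reads of the construct and of the cells' own gene cannot be told apart. All 10 monocytic and myeloid markers reached 1 CPM in all libraries and summed to 3483 to 3504 CPM in RRM2_OE and 3626 to 3806 CPM in MOCK, with 4 called higher (ITGAM, CD14, LYZ and CSF1R) and 1 lower (MPO) by edgeR. Of 5 T and NK markers, 2 reached 1 CPM in every library (CD3D and GNLY, both called higher), and the list summed to 30.4 to 33.1 CPM in RRM2_OE and 19.2 to 22.7 CPM in MOCK, with CD3E, CD3G and NCAM1 below 1 CPM. The B markers summed to 5.83 to 8.19 CPM in RRM2_OE and 4.51 to 6.99 CPM in MOCK. The erythroid markers, 3 of 4 at 1 CPM or more, summed to 385 to 460 CPM in RRM2_OE and 510 to 553 CPM in MOCK. The epithelial and stromal markers summed to 30.4 to 34.4 CPM in RRM2_OE and 27.6 to 34.0 CPM in MOCK. Most of that sum was KRT8 (means of 15.3 CPM in RRM2_OE and 15.1 CPM in MOCK) and KRT18 (16.2 and 14.8 CPM). COL1A1 stayed below 1 CPM, and EPCAM and COL1A2 were near 0. Their part in the results on antisense transcripts was not tested. Within both groups the odd-numbered libraries (1 and 3) stood apart from the even-numbered ones (2 and 4), which touches many antisense transcripts, and the labels name no reason.

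Most of these transcripts share exon sequence with a gene on the other strand. By the spans in the deposited table, 72 members overlapped the sense gene across their 5′ ends, 54 lay inside it, 51 overlapped it at the 3′ ends and 12 contained it. A further 2, OTUD6B-AS1 and PRKCQ-AS1, started within 1000 bases of the sense gene and ran away from it, 2, ZMIZ1-AS1 and SLC25A25-AS1, lay farther off, and for 7 the symbol before -AS was not found in the table. By the exons of GENCODE 29, 184 of the 200 had exon bases in common with an opposite-strand gene, with a median of 22.1% of exon bases over all 200 members. In 38 the share was 50% or more, and 16 had none.

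Whether the counting used the strand of the reads is not given in the sources used here and was not tested. Over the whole table, 303 genes lay with at least 95% of their exon bases inside the exons of a single opposite-strand gene with a mean count of 50 or more. Per length, the enclosed gene stood at a median of 1.39 times the RPKM (the authors' length-scaled level) of the gene around it, with quartiles of 0.770 and 2.02, and 165 of the 303 (54.5%) were within 2-fold of it. Both levels were correlated across these genes (Spearman's rho = 0.717, n = 303, from the same libraries). The highest enclosed levels lay inside abundant genes: 3573 RPKM inside GAPDH (1485 RPKM), 2772 RPKM inside TPT1 (658 RPKM) and 1360 RPKM inside LYZ (1105 RPKM). Other enclosed genes stood far below an abundant partner, such as 1 at 0.138 RPKM inside MALAT1 (189 RPKM). The 9 members among them were ARAP1-AS1, ARSD-AS1, C6orf47-AS1, CHMP1B-AS1, DDIT4-AS1, KXD1-AS1, PHLDA1-AS1, RCC2-AS1 and TTBK2-AS1. DDIT4-AS1, for example, stood at 135 RPKM and DDIT4 at 85.1 RPKM, and TTBK2-AS1 at 5.92 RPKM and TTBK2 at 3.49 RPKM. Members were chosen by their mean count, which favours high levels, so these examples do not show how enclosed antisense transcripts stand in general. Enclosed antisense transcripts that were not members lay on both sides of the gene around them. SMARCA2-AS1 stood at 6.38 RPKM and SMARCA2 at 27.7 RPKM, whereas RNF185-AS1 stood at 18.5 RPKM and RNF185 at 11.7 RPKM. Whether the values of shared exons hold reads of the partner was not tested, so it is unknown how far the 2 transcripts are kept apart there.

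**Figure D1:**
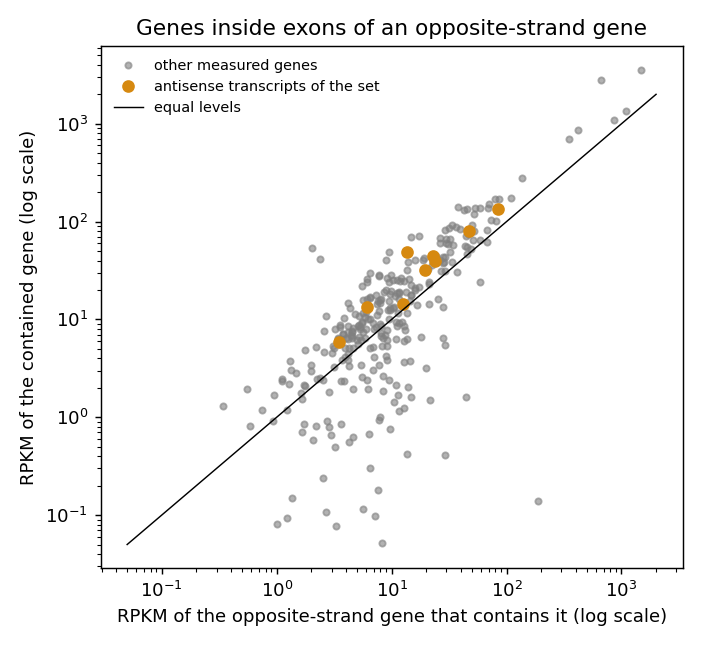
RPKM (mean of 8 libraries, log scale) of genes that lie inside the exons of an opposite-strand gene, on the vertical axis, against the RPKM of the gene that contains them, on the horizontal axis. Points are the 302 genes above 0 of 303, the 9 orange points are members, and the line marks equal levels. Of the 303 genes, 165 are within 2-fold of equal levels, and the median ratio is 1.39.

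For each member an overlap share was computed: the reads its shared exon bases would take if they were covered like the exons of the opposite-strand gene, as a percentage of the member's own reads. It is a yardstick for how much of a member's value could belong to its partner, and can exceed 100%. By this measure 16 members had no exon overlap, 20 an overlap share under 10%, 90 a share of 10 to 50% and 74 a share of 50% or more.

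The 10 most counted transcripts held 35.8% of all reads of the 200. VIM-AS1, beside vimentin, the intermediate filament protein of monocytes and fibroblasts, came first (ENSG00000229124, chr10:17256238-17271984, hg19). VIM-AS1 stood at 519, 597, 479 and 606 CPM in the RRM2_OE libraries, against 533, 633, 528 and 614 CPM in the MOCK libraries. The even-numbered libraries were the higher ones in both groups, which overlapped, and the transcript was not called between RRM2_OE and MOCK (log2 fold change of -0.07 ± 0.09 (SE), edgeR adjusted p = 0.673). With the replicate number as a block, which compares libraries of the same number, it was called lower (edgeR adjusted p = 0.0403). Across the odd and even libraries it was -0.25 on the log2 scale, odd minus even (edgeR adjusted p = 7.49e-12). VIM itself averaged 1870.2 ± 54.9 CPM in RRM2_OE and 1898 ± 64.05 CPM in MOCK (SD, n = 4 each).

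TUBA1B-AS1, which contains the alpha-tubulin gene TUBA1B, averaged 455 ± 10.2 CPM in RRM2_OE and 471 ± 11.3 CPM in MOCK (SD, n = 4 each). MIF-AS1, at the 3′ end of the cytokine gene MIF, averaged 247 ± 8.87 CPM in RRM2_OE and 263 ± 8.53 CPM in MOCK (SD, n = 4 each). Neither was called (log2 fold changes of -0.05 ± 0.04 and -0.09 ± 0.04, SE; edgeR adjusted p = 0.52 and 0.225); with the block MIF-AS1 was called lower (edgeR adjusted p = 0.0195). PCBP1-AS1, next to the RNA-binding protein gene PCBP1, and RPL30-AS1, inside the gene of ribosomal protein L30, were higher in even than in odd libraries in both groups. PCBP1-AS1 averaged 166 ± 10.3 CPM in RRM2_OE and 177 ± 11.8 CPM in MOCK (SD, n = 4 each), and RPL30-AS1 averaged 141 ± 18.5 CPM in RRM2_OE and 155 ± 19.6 CPM in MOCK (SD, n = 4 each). Their overlap shares were 102% and 53.8%, and neither was called without the block (edgeR adjusted p = 0.336 and 0.474), while with it both were called lower (edgeR adjusted p = 0.0159 and 0.00566).

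SLC12A5-AS1 and PITX1-AS1 carry the names of genes that were almost silent in THP1. SLC12A5, a neuronal potassium-chloride cotransporter, stood at 0.354 RPKM and its antisense transcript at 67.1 RPKM. PITX1, a homeobox factor, stood at 0.215 RPKM and PITX1-AS1 at 24.01 RPKM. Both members overlap the exons of another gene, MMP9, which encodes a secreted gelatinase, and MACROH2A1, which encodes a histone variant, with overlap shares of 94.04% and 169%. SLC12A5-AS1 stood at 178, 135, 177 and 159 CPM in the RRM2_OE libraries, against 149, 125, 156 and 127 CPM in the MOCK libraries. Its odd libraries were the higher ones in both groups, and so were those of MMP9 (893, 684, 962 and 700.4 CPM in the RRM2_OE libraries, against 863, 645, 799 and 613 CPM in the MOCK libraries). Neither gene was called without the block (edgeR adjusted p = 0.175 and 0.553), and with it both were called higher in RRM2_OE (edgeR adjusted p = 6.35e-06 and 0.000213). PITX1-AS1 averaged 120.3 ± 4.46 CPM in RRM2_OE and 121 ± 3.85 CPM in MOCK (SD, n = 4 each), with the groups overlapping and a log2 fold change of -0.00 ± 0.05 (SE).

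**Figure D2:**
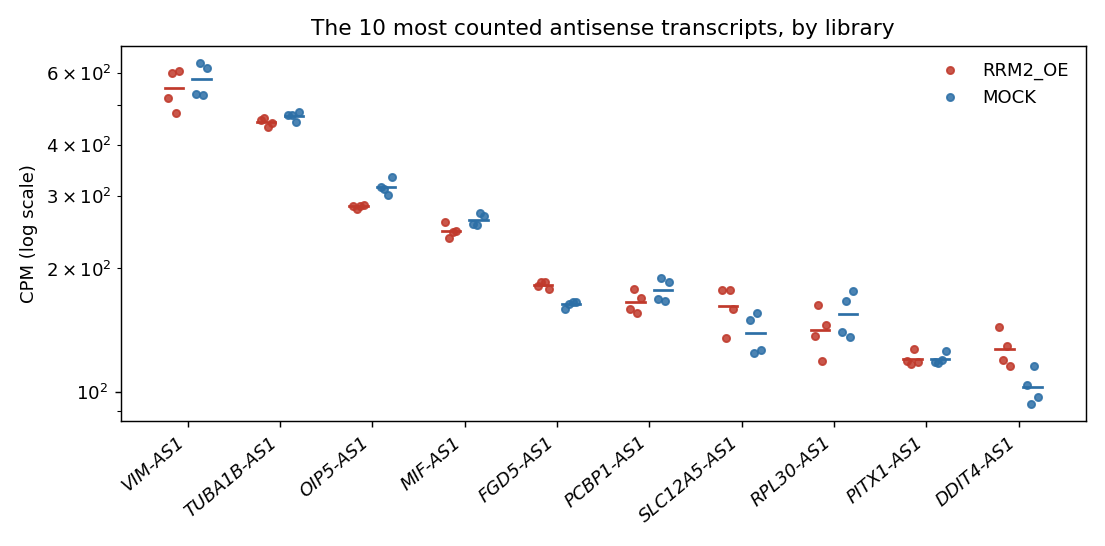
CPM on a log scale in each library for the 10 most counted antisense transcripts, with RRM2_OE libraries (red) to the left of MOCK libraries (blue); each point is 1 library and each bar the mean of 4. OIP5-AS1, FGD5-AS1 and DDIT4-AS1 are the 3 of the 10 that were called, and in DDIT4-AS1 the groups overlap.

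Per length, the members were spread widely around their sense genes. They were chosen by their mean count, which favours high levels, so these ratios do not show how antisense transcripts stand in general. Mean levels ran from 1.09 to 283 RPKM, with a median of 8.05 RPKM. The median ratio of antisense to sense RPKM was 0.785, and 77 of 193 members stood above their sense gene. In 17 the antisense transcript was more than 10-fold higher, as in FGD5-AS1 (33.7 RPKM, against 0.0346 RPKM for the exchange factor gene FGD5). In 9 it was under 0.1 of the sense level, as in PCBP1-AS1 (12.7 RPKM, against 192 RPKM for PCBP1). Members that lay inside the sense gene had a median ratio of 1.00, and those overlapping at the 5′ ends one of 0.428. The median share of exon bases in common with an opposite-strand gene was 41.1% in the former and 17.3% in the latter. What part shared reads have in these ratios was not tested.

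Of the 200 antisense transcripts, 182 were not called between the groups. By the quasi-likelihood test of edgeR, with p adjusted after Benjamini and Hochberg over all 15286 genes tested, 11 of the 200 were called higher in RRM2_OE, which is 5.5%, beside 7.41% of all genes tested. Lower in RRM2_OE were 7 of the 200, or 3.5%, beside 5.42% of all genes. The median log2 fold change of the members was -0.02, beside -0.00 for all genes tested, and their changes ran from -0.68 to 0.85, so no member reached 1 in size. The members took 0.676 to 0.689% of all reads in RRM2_OE and 0.671 to 0.702% in MOCK. In bulk RNA, fewer cells of a type and less RNA per cell cannot be told apart.

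The split of odd and even libraries moved these counts. With the replicate number as a block, 25 members (12.5%) were called higher, beside 15.1% of all genes, and 26 (13.0%) lower, beside 14.0% of all genes, and all 18 members called without the block were among them. Between odd and even libraries, with the group held in the model, 46 members (23.0%) were called higher in odd libraries, beside 15.4% of all genes, and 22 lower, beside 15.0% of all genes. Of the 10 most counted transcripts, 5 differed between odd and even libraries by this test, and so did 4 of the 18 called transcripts, which were DDIT4-AS1, LIF-AS2, ITGB2-AS1 and SLC39A13-AS1.

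**Figure D3:**
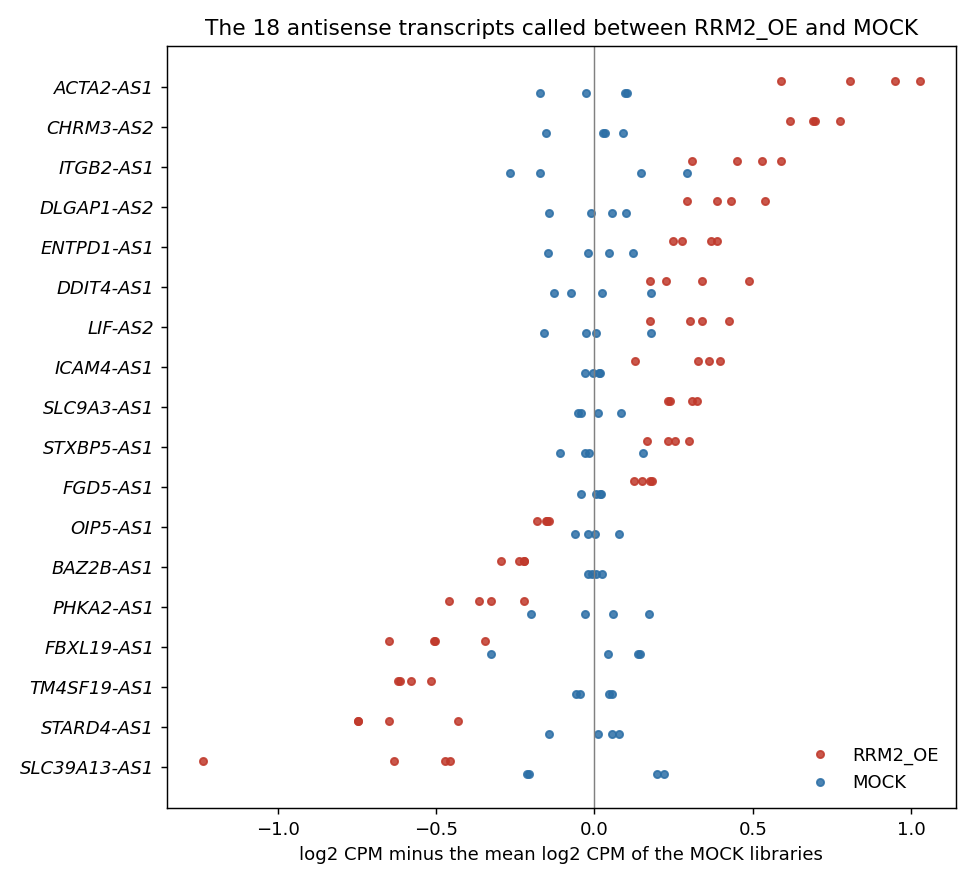
Levels of the 18 antisense transcripts called by edgeR, as log2 CPM minus the mean log2 CPM of the 4 MOCK libraries, with 1 point a library, RRM2_OE (red) drawn above MOCK (blue) in each row and rows ordered by log2 fold change. ACTA2-AS1 and CHRM3-AS2 lie farthest to the right and SLC39A13-AS1, STARD4-AS1 and TM4SF19-AS1 farthest to the left; in LIF-AS2 and DDIT4-AS1 the groups overlap.

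Of the 18 called transcripts, 6 had an overlap share under 10%, the lowest shares by which a measured gene on the other strand could enter their values. For 5 of the 6 the promoters (RefSeq, GRCh38.p14) are shown from 250 bases before the start to 50 bases after it. Capitals mark the GC box GGGCGG, the CCAAT box CCAAT and the TATA box TATAAA where a match was found on either strand, so that CCGCCC and ATTGG are matches on the other strand.
CHRM3-AS2 (chr1:239719070-239719369, minus strand): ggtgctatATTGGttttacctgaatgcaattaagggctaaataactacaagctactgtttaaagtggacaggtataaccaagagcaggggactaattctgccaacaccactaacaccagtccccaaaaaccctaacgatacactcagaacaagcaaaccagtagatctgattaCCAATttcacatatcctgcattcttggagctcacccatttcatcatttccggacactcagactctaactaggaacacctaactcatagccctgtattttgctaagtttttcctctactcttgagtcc
DLGAP1-AS2 (chr18:3603487-3603786, plus strand): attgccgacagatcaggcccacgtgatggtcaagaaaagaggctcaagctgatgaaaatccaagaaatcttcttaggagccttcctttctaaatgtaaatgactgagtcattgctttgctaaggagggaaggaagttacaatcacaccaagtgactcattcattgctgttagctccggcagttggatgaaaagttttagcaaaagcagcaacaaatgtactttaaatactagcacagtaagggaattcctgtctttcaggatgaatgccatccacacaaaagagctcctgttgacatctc
FGD5-AS1 (chr3:14948392-14948691, minus strand): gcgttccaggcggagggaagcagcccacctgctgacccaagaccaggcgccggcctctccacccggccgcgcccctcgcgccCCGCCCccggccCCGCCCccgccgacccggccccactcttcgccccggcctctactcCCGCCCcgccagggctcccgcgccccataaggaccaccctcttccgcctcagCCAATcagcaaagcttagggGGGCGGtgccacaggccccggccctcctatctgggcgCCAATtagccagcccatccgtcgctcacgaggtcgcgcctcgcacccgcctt
OIP5-AS1 (chr15:41283740-41284039, plus strand): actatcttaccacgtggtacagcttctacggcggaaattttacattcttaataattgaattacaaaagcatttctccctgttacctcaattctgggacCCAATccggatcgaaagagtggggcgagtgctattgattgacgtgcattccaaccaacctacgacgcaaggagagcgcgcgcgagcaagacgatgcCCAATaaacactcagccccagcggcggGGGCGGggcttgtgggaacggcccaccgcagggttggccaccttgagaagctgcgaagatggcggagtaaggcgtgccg
TM4SF19-AS1 (chr3:196318082-196318381, plus strand): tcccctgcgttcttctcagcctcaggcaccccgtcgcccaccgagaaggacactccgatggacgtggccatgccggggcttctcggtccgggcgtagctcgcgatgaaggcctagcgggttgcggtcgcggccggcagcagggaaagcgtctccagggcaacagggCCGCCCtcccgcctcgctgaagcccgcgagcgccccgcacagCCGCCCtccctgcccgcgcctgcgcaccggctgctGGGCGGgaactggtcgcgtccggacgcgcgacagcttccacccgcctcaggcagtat

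The 5 promoters fell apart by base composition. CHRM3-AS2 and DLGAP1-AS2 had 2 and 3 CG dinucleotides in 300 bases and no GC box, whereas FGD5-AS1, OIP5-AS1 and TM4SF19-AS1 had 32, 23 and 38 CG dinucleotides and 4, 1 and 3 GC boxes. The median was 19 CG dinucleotides over the 146 members with a promoter entry and 14 over all 34943 promoters in the table. A GC box was present in 53.4% of the 146 and in 44.9% of all promoters, a CCAAT box in 33.6% of the 146 and 34.6% of all, and a TATA box in 6.85% of the 146 and 11.6% of all. A match is a description of the letters.

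CHRM3-AS2 lies within the gene of the muscarinic acetylcholine receptor M3 (ENSG00000233355, chr1:239866684-239893765, hg19) and stood at 21.6, 22.9, 20.5 and 21.7 CPM in the RRM2_OE libraries, against 13.6, 14.2, 13.7 and 12.02 CPM in the MOCK libraries. Every RRM2_OE library was above every MOCK library (log2 fold change of 0.69 ± 0.08 (SE), edgeR adjusted p = 0.000127). CHRM3 itself was near the limit of detection, at 1.30 ± 0.202 CPM in RRM2_OE and 1.18 ± 0.390 CPM in MOCK (SD, n = 4 each), and was not called (0.14 ± 0.27, edgeR adjusted p = 0.797). The log2 ratio of antisense to sense CPM was higher in RRM2_OE by 0.55 (exact permutation test, two-sided, p = 0.0286), the smallest p that 4 libraries against 4 allow, and with a pseudocount of 0.1 CPM in place of 0.5 CPM the p was 0.0857.

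DLGAP1-AS2, inside the gene of a postsynaptic scaffold protein (ENSG00000262001, chr18:3602998-3608334, hg19), had no exon in common with an opposite-strand gene. It stood at 20.9, 18.8, 19.4 and 17.6 CPM in the RRM2_OE libraries, against 13.03, 14.9, 15.4 and 14.3 CPM in the MOCK libraries. The groups did not overlap (log2 fold change of 0.41 ± 0.08 (SE), edgeR adjusted p = 0.00701). DLGAP1 was at 0.0966 RPKM, against 5.29 RPKM for the antisense transcript, and was not called.

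FGD5-AS1 (ENSG00000225733, chr3:14961854-14989931, hg19) is a spliced long noncoding RNA whose sense gene was almost silent here, at 0 to 0.520 CPM a library. The antisense transcript stood at 182, 186, 185 and 179 CPM in the RRM2_OE libraries, against 159, 164, 166 and 166 CPM in the MOCK libraries. The rise was small and the groups did not overlap (log2 fold change of 0.16 ± 0.04 (SE), edgeR adjusted p = 0.0211). It missed the threshold without RRM2_OE library 2 or 3 or MOCK library 1 or 2, with adjusted p up to 0.0615, and also without the low-count filter (edgeR adjusted p = 0.0609).

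OIP5-AS1 (ENSG00000247556, chr15:41576188-41601901, hg19), known as Cyrano and in mouse cells as an RNA that directs the destruction of the microRNA miR-7, fell. It stood at 285, 279, 284 and 286 CPM in the RRM2_OE libraries, against 316, 311, 303 and 333 CPM in the MOCK libraries. All RRM2_OE libraries were below all MOCK libraries (log2 fold change of -0.16 ± 0.04 (SE), edgeR adjusted p = 0.0322), and the call was lost without RRM2_OE library 1, 2, 3 or 4 or MOCK library 1, 2 or 4 (adjusted p up to 0.0880). The call was lost too with limma on log2(RPKM + 0.1), at an adjusted p of 0.0917. OIP5, which encodes a centromere protein, averaged 7.29 ± 1.24 CPM in RRM2_OE and 6.94 ± 1.002 CPM in MOCK (SD, n = 4 each) and was not called. The ratio of antisense to sense differed by -0.22 (exact permutation test, two-sided, p = 0.257).

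TM4SF19-AS1, at the 3′ end of a gene for a multi-pass membrane protein (ENSG00000235897, chr3:196045201-196052441, hg19), stood at 21.1, 21.8, 21.2 and 22.7 CPM in the RRM2_OE libraries, against 33.8, 31.2, 31.5 and 33.6 CPM in the MOCK libraries. It fell without overlap of the groups (log2 fold change of -0.58 ± 0.06 (SE), edgeR adjusted p = 9.63e-05) and kept its call in all 8 fits that left out 1 library. TM4SF19 also fell and averaged 6.14 ± 1.13 CPM in RRM2_OE and 9.78 ± 1.32 CPM in MOCK (SD, n = 4 each) (log2 fold change of -0.67 ± 0.15 (SE), edgeR adjusted p = 0.00977). The overlap share was 8.34%, and the ratio of antisense to sense differed by 0.07 (exact permutation test, two-sided, p = 0.743).

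In 7 pairs both transcripts were called, and in all 7 they moved the same way; with the block 31 pairs were called the same way. Higher in RRM2_OE with their sense gene were ACTA2-AS1, ENTPD1-AS1, DDIT4-AS1, LIF-AS2 and SLC9A3-AS1, and lower were TM4SF19-AS1 and PHKA2-AS1. ACTA2-AS1, at the 3′ end of the smooth muscle actin gene ACTA2 (ENSG00000180139, chr10:90692400-90700368, hg19), had the largest rise of all members. It stood at 16.4, 15.5, 14.04 and 12.1 CPM in the RRM2_OE libraries, against 7.13, 8.58, 7.88 and 8.61 CPM in the MOCK libraries, with no overlap of the groups (log2 fold change of 0.85 ± 0.11 (SE), edgeR adjusted p = 0.000422). ACTA2 stood at 40.03, 37.3, 37.9 and 37.2 CPM in the RRM2_OE libraries, against 22.9, 22.3, 23.5 and 21.3 CPM in the MOCK libraries, also with no overlap (log2 fold change of 0.76 ± 0.06 (SE), edgeR adjusted p = 9.71e-06). The overlap share was 45.8%, and the antisense-to-sense ratio differed by 0.06 (exact permutation test, two-sided, p = 0.657).

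ENTPD1-AS1, named after the gene of CD39, an enzyme that degrades extracellular ATP (ENSG00000226688, chr10:97512963-97849995, hg19), stood at 23.2, 23.7, 25.2 and 25.6 CPM in the RRM2_OE libraries, against 19.3, 20.2, 17.6 and 21.3 CPM in the MOCK libraries. The groups did not overlap (log2 fold change of 0.32 ± 0.08 (SE), edgeR adjusted p = 0.0158), but limma on log2(RPKM + 0.1) gave an adjusted p of 0.0619. ENTPD1 averaged 134 ± 4.52 CPM in RRM2_OE and 104 ± 6.60 CPM in MOCK (SD, n = 4 each), a log2 fold change of 0.36 ± 0.05 (SE).

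DDIT4-AS1 lies entirely within exons of DDIT4, a stress-induced inhibitor of mTORC1 (ENSG00000269926, chr10:74034673-74035738, hg19). It stood at 144, 119.7, 129 and 116 CPM in the RRM2_OE libraries, against 104, 93.7, 116 and 97.3 CPM in the MOCK libraries. The lowest RRM2_OE value was just under the highest MOCK value, both groups were higher in their odd libraries, and the log2 differences were 0.31 within odd and 0.30 within even libraries (log2 fold change of 0.31 ± 0.08 (SE), edgeR adjusted p = 0.0242). DDIT4 rose with a log2 change of like size (log2 fold change of 0.30 ± 0.05 (SE), edgeR adjusted p = 0.00225), and the ratio differed by 0.01 (exact permutation test, two-sided, p = 0.886). The antisense call was lost without RRM2_OE library 1 or 3 or MOCK library 2 or 4 (adjusted p up to 0.0681).

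LIF-AS2, across the 5′ end of the cytokine gene LIF (ENSG00000268812, chr22:30641984-30642987, hg19), averaged 65.8 ± 4.72 CPM in RRM2_OE and 53.2 ± 5.17 CPM in MOCK (SD, n = 4 each) (log2 fold change of 0.31 ± 0.07 (SE), edgeR adjusted p = 0.0171). LIF averaged 661 ± 28.98 CPM in RRM2_OE and 543 ± 23.96 CPM in MOCK (SD, n = 4 each) (log2 fold change of 0.28 ± 0.05 (SE), edgeR adjusted p = 0.00268), and the overlap share was 44.6%. SLC9A3-AS1, at the 3′ end of the NHE3 sodium-proton exchanger gene (ENSG00000225138, chr5:473351-480999, hg19), averaged 23.8 ± 0.773 CPM in RRM2_OE and 19.7 ± 0.859 CPM in MOCK (SD, n = 4 each) (log2 fold change of 0.28 ± 0.07 (SE), edgeR adjusted p = 0.0176). SLC9A3 rose more (log2 fold change of 0.52 ± 0.11 (SE), edgeR adjusted p = 0.00803), and the log2 antisense-to-sense ratio differed, RRM2_OE minus MOCK, by -0.22 (exact permutation test, two-sided, p = 0.0286). The LIF-AS2 call was lost without RRM2_OE library 2 or MOCK library 3 (adjusted p up to 0.0515) and the SLC9A3-AS1 call without RRM2_OE library 2 or MOCK library 2 (up to 0.0517).

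PHKA2-AS1 runs into the 3′ end of PHKA2, a regulatory subunit of phosphorylase kinase (ENSG00000237836, chrX:18908414-18912615, hg19), and shares 64.2% of its exon bases with opposite-strand exons. It averaged 9.31 ± 0.631 CPM in RRM2_OE and 11.8 ± 1.27 CPM in MOCK (SD, n = 4 each) (log2 fold change of -0.35 ± 0.10 (SE), edgeR adjusted p = 0.0444). PHKA2 averaged 81.4 ± 4.30 CPM in RRM2_OE and 96.6 ± 7.31 CPM in MOCK (SD, n = 4 each) (log2 fold change of -0.25 ± 0.06 (SE), edgeR adjusted p = 0.0184). The antisense call was lost without RRM2_OE library 1, 2, 3 or 4 or MOCK library 1, 3 or 4 (adjusted p up to 0.119), with DESeq2 and with limma on RPKM.

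SLC39A13-AS1 showed the largest fall, and its sense gene did not fall with it. SLC39A13-AS1 overlaps the 5′ end of the zinc transporter gene SLC39A13 (ENSG00000255197, chr11:47404699-47430741, hg19) without sharing exon bases with it or with another opposite-strand gene. It stood at 11.8, 6.88, 11.7 and 10.4 CPM in the RRM2_OE libraries, against 18.6, 14.1, 18.9 and 14.00 CPM in the MOCK libraries, with odd libraries higher than even ones in both groups and no overlap between the groups (log2 fold change of -0.68 ± 0.16 (SE), edgeR adjusted p = 0.0194). Within odd libraries the log2 difference was -0.65 and within even ones -0.69. Without MOCK library 1 or 3 the call was lost (adjusted p up to 0.0562). SLC39A13 stood at 44.6, 39.5, 45.4 and 39.1 CPM in the RRM2_OE libraries, against 40.3, 34.9, 35.1 and 36.7 CPM in the MOCK libraries, higher in RRM2_OE by 0.20 ± 0.07 on the log2 scale, with an edgeR adjusted p of 0.0935 without the block and 0.00667 with it. With the block this was the 1 pair called in opposite directions, and without it there was none by edgeR, DESeq2 or limma-voom. At an unadjusted p under 0.05 for both genes of a pair, 24 pairs moved the same way and SLC39A13-AS1 with SLC39A13 was the 1 that did not. The log2 antisense-to-sense ratio was -2.02 ± 0.28 in RRM2_OE and -1.15 ± 0.21 in MOCK (SD, n = 4 each), a difference of -0.87 (exact permutation test, two-sided, p = 0.0286).

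STARD4-AS1 fell by 0.64 ± 0.08 (SE) on the log2 scale (edgeR adjusted p = 0.000348), while the gene it is named after, a sterol carrier, was at 0.07 ± 0.05 (edgeR adjusted p = 0.43). The transcript (ENSG00000246859, chr5:110847924-111075423, hg19) stood at 24.8, 19.9, 21.3 and 19.9 CPM in the RRM2_OE libraries, against 33.7, 30.3, 34.8 and 35.3 CPM in the MOCK libraries, with no overlap of the groups, and kept its call in all 8 fits without 1 library. Its exons overlap another gene on the other strand, NREP, named for neuronal regeneration, with an overlap share of 34.8%. NREP stood at 57.95, 57.7, 57.8 and 61.1 CPM in the RRM2_OE libraries, against 106, 102, 94.2 and 91.6 CPM in the MOCK libraries, also without overlap (log2 fold change of -0.75 ± 0.06 (SE), edgeR adjusted p = 5.28e-06). The log2 ratio of STARD4-AS1 to STARD4 differed, RRM2_OE minus MOCK, by -0.70 (exact permutation test, two-sided, p = 0.0286).

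FBXL19-AS1, at the 5′ end of an F-box protein gene (ENSG00000260852, chr16:30930640-30934590, hg19), averaged 7.96 ± 0.684 CPM in RRM2_OE and 11.3 ± 1.62 CPM in MOCK (SD, n = 4 each) (log2 fold change of -0.51 ± 0.12 (SE), edgeR adjusted p = 0.0155). FBXL19 was at -0.08 ± 0.09 on the log2 scale and was not called, and the ratio differed by -0.40 (exact permutation test, two-sided, p = 0.0286). BAZ2B-AS1, at the 5′ end of a bromodomain protein gene (ENSG00000224152, chr2:160471807-160473593, hg19), averaged 16.9 ± 0.397 CPM in RRM2_OE and 20.01 ± 0.265 CPM in MOCK (SD, n = 4 each) (log2 fold change of -0.24 ± 0.07 (SE), edgeR adjusted p = 0.0307). BAZ2B was at -0.17 ± 0.06 (edgeR adjusted p = 0.0806, and 0.000559 with the block). The call of BAZ2B-AS1 was lost in all 8 fits that left out 1 library (adjusted p up to 0.0782), with DESeq2 and without the low-count filter.

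The other called rises had sense genes that were not called without the block. ITGB2-AS1 lies inside ITGB2, which encodes CD18, the beta chain of the leukocyte integrins (ENSG00000227039, chr21:46340966-46349593, hg19). It stood at 24.6, 20.3, 23.7 and 22.4 CPM in the RRM2_OE libraries, against 18.1, 13.6, 20.1 and 14.5 CPM in the MOCK libraries, odd libraries higher in both groups, with no overlap (log2 fold change of 0.45 ± 0.12 (SE), edgeR adjusted p = 0.0227). ITGB2 was more abundant per length, at 112 RPKM beside 8.05 RPKM, and stood at 0.10 ± 0.05 on the log2 scale (edgeR adjusted p = 0.246, and 0.00274 with the block). The overlap share was 173%, more than the transcript's own reads. The ratio to ITGB2 was higher in RRM2_OE by 0.36 (exact permutation test, two-sided, p = 0.0286), and the part of shared reads in it was not tested. The call was lost without RRM2_OE library 1 or 3 or MOCK library 2 or 4 (adjusted p up to 0.0664).

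ICAM4-AS1 contains ICAM4, the red cell adhesion molecule of the Landsteiner-Wiener blood group (ENSG00000267607, chr19:10396477-10399695, hg19), and averaged 45.8 ± 3.68 CPM in RRM2_OE and 37.04 ± 0.559 CPM in MOCK (SD, n = 4 each) (log2 fold change of 0.31 ± 0.07 (SE), edgeR adjusted p = 0.00878). Its overlap share was 100%, and ICAM4 was at 0.15 ± 0.11. STXBP5-AS1, at the 5′ end of the tomosyn gene, an inhibitor of vesicle fusion (ENSG00000233452, chr6:147163037-147525750, hg19), averaged 38.6 ± 1.46 CPM in RRM2_OE and 32.8 ± 2.54 CPM in MOCK (SD, n = 4 each) (log2 fold change of 0.24 ± 0.07 (SE), edgeR adjusted p = 0.0359). STXBP5 was at 0.08 ± 0.04 (edgeR adjusted p = 0.267, and 0.0358 with the block) and the ratio differed by 0.16 (exact permutation test, two-sided, p = 0.0571). The STXBP5-AS1 call was lost without RRM2_OE library 2, 3 or 4 or MOCK library 1, 2 or 3 (adjusted p up to 0.103), with DESeq2 and with limma on RPKM.

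Across all 187 pairs, antisense and sense changes leaned the same way. The signs were equal in 134 pairs (71.7%). The log2 fold changes had a Pearson's r of 0.55 and a Spearman's rho of 0.59 across the 187 pairs. These pairs come from the same 8 libraries, and in many cases they share exon bases and may share reads. The correlation was higher in each class of larger overlap share. Pearson's r was 0.32 over the 13 pairs with no exon overlap, 0.41 over the 18 with a share under 10%, 0.58 over the 85 with 10 to 50% and 0.77 over the 71 with 50% or more. Of the 200 members, the called ones were 2 of the 16 with no exon overlap (12.5%) and 4 of the 20 under 10% (20.0%). They were 8 of the 90 from 10 to 50% (8.89%) and 4 of the 74 at 50% or more (5.41%). Of all genes tested, 12.8% were called. Differences between these classes were not tested.

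**Figure D4:**
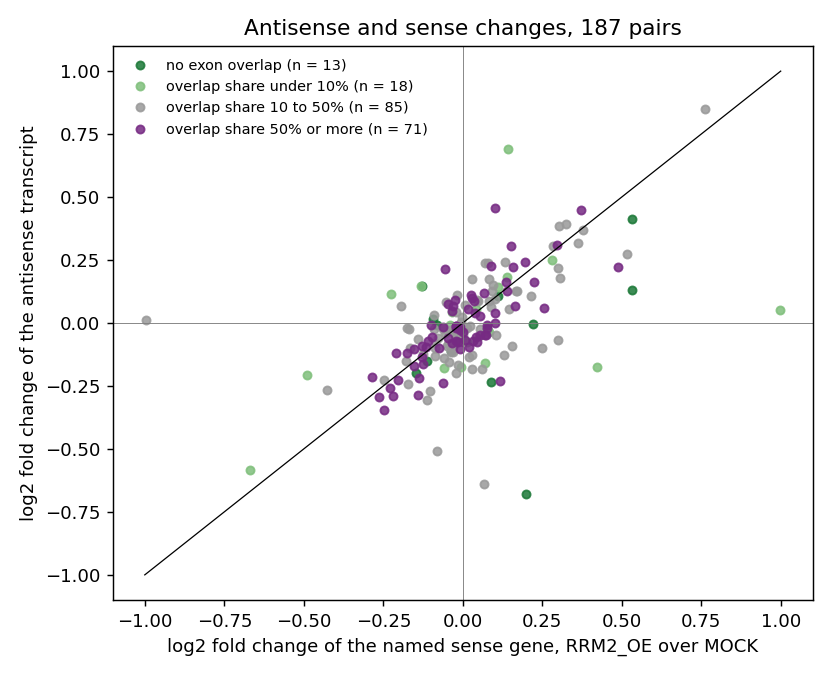
Log2 fold change, RRM2_OE over MOCK, of the antisense transcript (vertical) against that of its sense gene (horizontal) for 187 pairs, coloured by overlap share; the line marks equal change. Most purple and grey points lie near the line, and so does the highest point, ACTA2-AS1 (grey). TSPOAP1-AS1 (grey, 0.01 with its sense gene at -0.99) and STARD4-AS1 (grey, -0.64 with its sense gene at 0.07) lie away from it. So do SLC39A13-AS1 (dark green, at the bottom), CHRM3-AS2 (light green) and TP73-AS1 (light green, 0.05 with its sense gene at 1.00).

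Of the 183 different sense genes tested, 28 were called (15.3%), beside 12.8% of all genes tested. In 22 pairs the sense gene was called and the antisense transcript was not, and in 19 of them the antisense change had the same sign. The genes in this set include RRM1, the large subunit of ribonucleotide reductase, at 0.32 ± 0.05 on the log2 scale beside 0.39 ± 0.13 for RRM1-AS1 (edgeR adjusted p = 0.0586). CD44, an adhesion receptor, was at 0.38 ± 0.08 beside 0.37 ± 0.14 for CD44-AS1 (adjusted p = 0.12). MYB, a transcription factor of blood progenitors, was at -0.25 ± 0.04 beside -0.23 ± 0.09 for MYB-AS1 (adjusted p = 0.132). With the block these 3 antisense transcripts were called too (edgeR adjusted p = 0.00513, 0.00126 and 0.0157). These 3 pairs and the next 2 were chosen after their values were seen. TSPOAP1, which encodes a partner of a mitochondrial membrane protein, stood at 73.7, 68.9, 69.2 and 72.2 CPM in the RRM2_OE libraries, against 140.2, 141, 141 and 144 CPM in the MOCK libraries (log2 fold change of -0.99 ± 0.04 (SE), edgeR adjusted p = 6.51e-08). TSPOAP1-AS1 stood at 79.97, 74.2, 80.3 and 69.8 CPM in the RRM2_OE libraries, against 80.9, 76.9, 74.3 and 69.5 CPM in the MOCK libraries. The sense gene thus fell without overlap of the groups while the antisense transcript was at 0.01 ± 0.06, and their ratio was higher in RRM2_OE by 1.00 (exact permutation test, two-sided, p = 0.0286).

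TP73, of the p53 family, stood at 10.96, 10.4, 9.27 and 8.03 CPM in the RRM2_OE libraries, against 4.23, 4.33, 6.002 and 4.76 CPM in the MOCK libraries (log2 fold change of 1.00 ± 0.14 (SE), edgeR adjusted p = 0.000622). TP73-AS1, with an overlap share of 2.72%, was at 0.05 ± 0.07, and the log2 ratio differed, RRM2_OE minus MOCK, by -0.88 (exact permutation test, two-sided, p = 0.0286).

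Some antisense transcripts mainly overlap the exons of a gene other than the one in their name. This held for 29 of the 179 members with both a sense gene in the table and an overlapping exon, and in 25 of them all 3 genes were tested. Across those 25, the antisense change had a Pearson's r of 0.88 and a Spearman's rho of 0.76 with that of the overlapping gene, and 0.16 and 0.32 with that of the gene in the name. Without STARD4-AS1, the values over 24 members were 0.79 and 0.73 with the overlapping gene, and 0.26 and 0.39 with the gene in the name. TSPOAP1-AS1, at 0.01 with the gene in its name at -0.99, was kept in both and weighs on the latter values. The signs differed less: they were equal in 19 of the 25 with the overlapping gene and in 16 with the gene in the name. Of the overlapping genes, 4 of 25 were called, beside 12.8% of all genes tested. All 4 were lower in RRM2_OE: NREP, FUT4, which makes the CD15 antigen, USP54, a ubiquitin protease family member, and EIF4B, a translation initiation factor.

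TNS2-AS1 stood at -0.23 ± 0.10 on the log2 scale, EIF4B at -0.26 ± 0.05 and the tensin gene TNS2 at 0.12 ± 0.18. PIWIL4-AS1 stood at -0.26 ± 0.09 with FUT4 at -0.35 ± 0.04 and PIWIL4 itself at -0.43 ± 0.06. PPP3CB-AS1 stood at -0.13 ± 0.08, USP54 at -0.27 ± 0.06 and the calcineurin gene PPP3CB at -0.09 ± 0.06. None of these 3 antisense transcripts was called (edgeR adjusted p = 0.173, 0.0753 and 0.351), and with the block TNS2-AS1 and PIWIL4-AS1 were called lower (edgeR adjusted p = 0.047 and 0.00133). TSPOAP1-AS1 mainly overlaps RNF43, which was at 0.01 ± 0.08. Over all 179 members with a tested overlapping gene, r was 0.72 and rho 0.71.

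**Figure D5:**
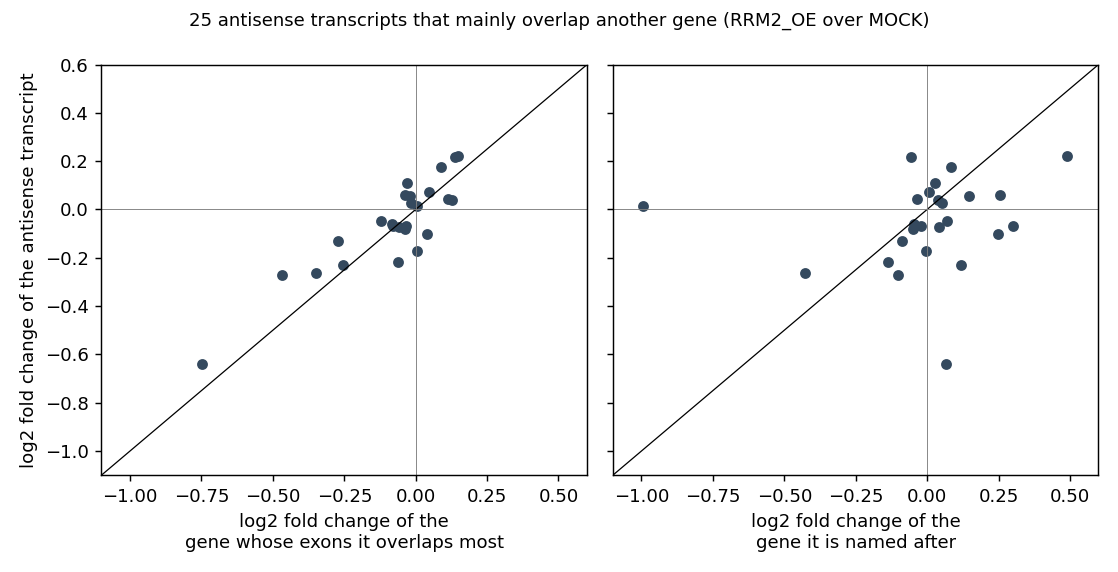
Log2 fold change, RRM2_OE over MOCK, of 25 antisense transcripts (vertical axis in both panels) against that of the gene whose exons they overlap most (left) and of the gene they are named after (right); the line marks equal change. On the left the points follow the line (Pearson's r = 0.88), on the right they scatter (r = 0.16), with STARD4-AS1 the lowest point in both. TSPOAP1-AS1 is the point farthest left in the right panel (its named gene at -0.99).

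The ratio of antisense to sense CPM was tested in all 187 pairs by the two-sided exact permutation test over libraries, as above. In 13 pairs (6.95%) the p was 0.0286, the smallest that 4 libraries against 4 can give, so that no value could pass an adjustment over 187 pairs. The antisense transcript had the higher ratio in RRM2_OE in 4 of the 13, TSPOAP1-AS1, LIPE-AS1, ITGB2-AS1 and CHRM3-AS2, and the lower ratio in 9. Besides those described, the 9 include RUSC1-AS1 (-0.37), RNF213-AS1 (-0.16) and RCCD1-AS1 (-0.34). Pairs that shift less than the libraries spread are not shown to move by the same amount.

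Members were also counted by lists of sense genes, which were drawn up by hand and are not complete. A list of myeloid, lymphoid and immune genes held 12 members, of which 3 were called higher by edgeR (CHRM3-AS2, ITGB2-AS1 and ICAM4-AS1), beside 7.41% of all genes tested, and 0 lower, beside 5.42%. At an unadjusted p under 0.05 it was 4 and 1, and DESeq2 called 3 and 0. The median log2 fold change of the 12 was 0.12, beside -0.00 for all genes. CHRM3, the muscarinic receptor gene, is on that list although it is not known as an immune gene, and LIF-AS2 and ENTPD1-AS1, which were also called higher, are not on it. With the block, 4 of the 12 were called higher, beside 15.1% of all genes, and 1 lower, beside 14.0%. Of 7 members beside genes of the cell cycle, DNA replication and repair, 0 were higher and 1 was lower, OIP5-AS1, by edgeR and by DESeq2. This stands beside 7.41% higher and 5.42% lower of all genes tested by edgeR. The counts were 1 and 1 at an unadjusted p under 0.05, and with the block, and the median was -0.03.

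The 4 members in homeobox clusters or beside homeobox genes had a median of -0.08, the 5 beside mitochondrial and metabolic genes -0.02 and the 6 beside zinc finger genes -0.03. A list meant for RNA and translation held 7 members with a median of -0.02 (PSMA3-AS1, THAP9-AS1, NOP14-AS1, WAC-AS1, MAPKAPK5-AS1, PAXIP1-AS2 and MBNL1-AS1). Several of their sense genes have other roles, such as PSMA3 of the proteasome and the kinase gene MAPKAPK5, and PCBP1-AS1 and RPL30-AS1 are not on it, so its name does not describe its members. None of these 22 was called by edgeR, DESeq2 or limma-voom, beside 12.8% of all genes tested by edgeR. At an unadjusted p under 0.05 it was 1 of the 22, beside 26.6% of all genes, and THAP9-AS1 was called higher with the block.

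At the lower edge of the set, ranks 199 and 200 were ALOX12-AS1 and ZNF561-AS1, with mean counts of 109 and 108 reads. They averaged 9.26 ± 1.09 CPM in RRM2_OE and 9.89 ± 1.35 CPM in MOCK (SD, n = 4 each) for ALOX12-AS1 and 9.89 ± 1.18 CPM in RRM2_OE and 9.16 ± 0.880 CPM in MOCK (SD, n = 4 each) for ZNF561-AS1. Just outside were REPIN1-AS1 with 108 reads and SIGLEC10-AS1 with 108 reads. SIGLEC10-AS1, inside the gene of an inhibitory receptor for sialic acid, averaged 11.04 ± 1.59 CPM in RRM2_OE and 7.82 ± 0.754 CPM in MOCK (SD, n = 4 each) and its sense gene 45.3 ± 1.20 CPM in RRM2_OE and 28.7 ± 3.21 CPM in MOCK (SD, n = 4 each).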

How the data were processed

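The deposited counts are whole numbers of reads for each Ensembl gene, and the authors also deposited RPKM values, which divide those counts by the exon length in base pairs given beside each gene. Tools named in the submitters' processing notes are HTSeq 0.11.2, TopHat2 and bcl2fastq 2.18.0.12, with the build hg19. Neither the annotation nor whether strand was used in counting is given in the sources used here. Per the labels' protocols, poly(A) libraries were made with a stranded kit from 200 ng of total RNA.

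Groups came from the labels, with every column matched by name. Symbols came by Ensembl ID from a table of current names for 32562 genes and from GENCODE 29 for 299 more, including the members DDIT4-AS1 and SLC9A3R1-AS1. Spans are those of the deposited tables (hg19). Exon overlaps between genes were taken from GENCODE 29 (GRCh38), whose exon length was within 5% of the deposited one for 171 of the 200 members. Those overlaps are relations between genes, and no coordinate of that annotation is printed. Promoter sequences are from RefSeq (GRCh38.p14).

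The counts were tested with the robust quasi-likelihood F test of edgeR 4.0.16 (R 4.3.3) on the 15286 genes that passed its default low-count filter, with TMM scaling, Benjamini-Hochberg adjustment over those genes and a threshold of 0.05. The biological coefficient of variation was 7.20%. Depth was 10994255 to 11686152 reads a library. Antisense-to-sense ratios used log2(CPM + 0.5). Alternatives used DESeq2 1.42.0, limma 3.58.1 (voom, and log2(RPKM + 0.1)), other filters and factors, a replicate block, a term for odd and even numbers, and each library left out in turn.

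The labels give no pairing of the samples beyond the replicate number. Deviations from the group means correlated at 0.22 to 0.25 between libraries of the same number. Libraries of other numbers but the same parity reached 0.29, and libraries of unlike parity gave -0.28 to -0.21. The correlations thus followed odd and even numbers and do not show that equal numbers are matched pairs. The replicate block is given as an alternative only.

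Named were RRM2, the 10 members with the highest mean count, the largest called rises and falls up to 10 each, pairs called in opposite directions, the 2 members on either side of rank 200, and the sense gene of each; others were named after their values were seen. The members, lists and the odd/even split were chosen with earlier results of these data known.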

Additional observations from a re-analysis of the deposited data

Results flagged for a closer look

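In 3 of 116 group-by-gene checks on the named antisense transcripts and their sense genes, 1 library lay far from the other 3 of its group, by Dixon's test at its 95% critical value; chance flags about 1 in 20. PITX1-AS1 stood at 127 CPM in RRM2_OE library 3, against 117 to 119 CPM in the other RRM2_OE libraries. ZNF561-AS1 stood at 10.5 CPM in MOCK library 1, against 8.69 to 8.76 CPM in the other MOCK libraries. OIP5, the sense gene of OIP5-AS1, stood at 9.15 CPM in RRM2_OE library 2, against 6.56 to 6.79 CPM in the other RRM2_OE libraries. None of these 3 genes was called between the groups by edgeR.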

How the results depend on the processing

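No named gene or ratio that passed its threshold changed direction under an alternative, but values near 0 that did not pass could, such as the log2 ratio of VIM-AS1 to VIM (-0.05, and 0.03 without RRM2_OE library 3). With the replicate block, which all 18 called members passed, members called higher and lower numbered 25 and 26, all genes 2303 and 2143 (4446 in all), pairs called the same way 31 and opposite ways 1, and 0 of 25 named ratios passed, since the sign-flip test on 4 pairs cannot go below 0.125. With a term for odd and even numbers these counts were 26 and 29 members, 2427 and 2277 genes (4704 in all), 32 pairs the same way and 1 opposite. At an adjusted p of 0.01 they were 4 and 2 members, 530 and 281 genes (811 in all) and 2 pairs. Limma on RPKM called 453 genes lower. Leaving out 1 library at a time gave 6 to 12 members higher, 4 to 6 lower, 5 to 10 pairs called the same way, 542 to 607 genes lower in all, and 2 to 7 named ratios at p under 0.05, and 8 of the 18 calls held in all 8 such fits. Depth limits sense genes with few reads, such as CHRM3, DLGAP1 and SLC12A5.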
